A study of Mus musculus with 17 samples.

Results

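The interstitial matrix of connective tissue was followed through 45 genes: 7 fibril-forming collagens, 8 other collagens, 9 elastic fibre and fibulin genes, 5 adhesive glycoproteins, 5 small leucine-rich proteoglycans, 3 genes of other proteoglycans, hyaluronan and heparin binding, 4 cross-linking enzymes and 4 proteases or their inhibitors. The genes were chosen by name as a fibroblast matrix set, and all 45 of 45 symbols were found among the 24015 genes listed in each count file. Messenger RNA of CD-1 mouse cells had been sequenced in 17 libraries. Fibroblasts of mouse embryos (MEF, labelled as the control, n = 3) had been kept for 3 passages in MEF medium. XEN cells are stem cells derived from extraembryonic endoderm, and iXEN cells are induced counterparts that the series' title attributes to the reprogramming factors OSKM (Pou5f1, Sox2, Klf4 and Myc). Both had spent 10 passages in ESC medium and then 5 passages either in ESC medium (XEN, n = 3; iXEN, n = 4) or in XEN medium (XEN, n = 3; iXEN, n = 4). Groups and libraries are written as cell, last medium and label number, so that XEN-ESC 1 is a library of XEN cells whose last medium was ESC medium. XEN cells have the numbers 1, 2 and 7, and iXEN cells 1, 2, 6 and 9. MEF differed from every other group in cell type, medium and passages together, and these cannot be told apart. The labels call XEN and iXEN samples cell lines without saying whether each number is a separate derivation.

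Interstitial matrix is the material that fibroblasts lay down between cells. Fibrillar collagens are secreted as procollagens, trimmed outside the cell, assembled into fibrils on fibronectin and type V and XI collagen, and cross-linked by lysyl oxidases, while fibrillins, fibulins and elastin form the elastic fibres. Extraembryonic endoderm, by contrast, is known for the basement membrane it makes (laminins, type IV collagen, nidogen), of which the Reichert membrane of the rodent yolk sac is an extreme form.

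Counts in genes came to between 20071567 and 45914262 per library. Levels are given as CPM, counts scaled to the library's size, after TMM scaling, a scaling between libraries that does not correct for gene length, so CPM are compared between libraries and not between genes. A second scale, percent of the MEF mean, divides a gene's CPM in a library by its mean CPM in the 3 MEF libraries. The MEF label was checked against 12 fibroblast genes outside the matrix set (among them Thy1, Pdgfrb and Prrx1), which summed to 2421 to 2767 CPM in MEF and to 24.6 to 576 CPM in the other 14 libraries. Single genes of the list went otherwise. Tcf21 was at most 0.0884 CPM in MEF and reached 1.53 CPM in iXEN-ESC 9. Zeb1 was at 5.82% to 58.1% of its MEF mean outside MEF, and Twist2 was above MEF in XEN-ESC 1 and iXEN-XEN 2. A list of 10 endoderm genes, Gata4 and Sox17 included, summed to 2847 to 31901 CPM in the XEN and iXEN libraries against 225 to 290.4 CPM in MEF. The largest part was the laminin gene Lama1, at 1445 to 28361 CPM outside MEF. Gata4 was at 351 to 1483 CPM there and at 0.929 to 1.43 CPM in MEF. Not every gene of the list was high in every library: Sox7 was at 0.470 CPM in XEN-ESC 7 and 0.805 CPM in XEN-XEN 7, against 0.387 to 0.560 CPM in MEF. Pth1r was at 23.6 CPM in XEN-ESC 7, against 14.7 to 23.6 CPM in MEF.

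In MEF the 45 genes together took 8.10% to 10.3% of all gene counts. Their share was 1.53% in XEN-ESC 1, 0.821% in iXEN-XEN 2 and 0.562% in iXEN-XEN 9, and 0.106% to 0.270% in the remaining 11 libraries. The median gene stood at 0.0129% to 0.969% of its MEF mean in those 11 libraries, at 16.1% in XEN-ESC 1, at 8.23% in iXEN-XEN 2 and at 2.50% in iXEN-XEN 9. These 3 libraries are described singly further on. The counts of called matrix genes and the values of many genes described by name are also given without them. The 3 were singled out by their matrix level, so values without them are a description.

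**Figure D1:**
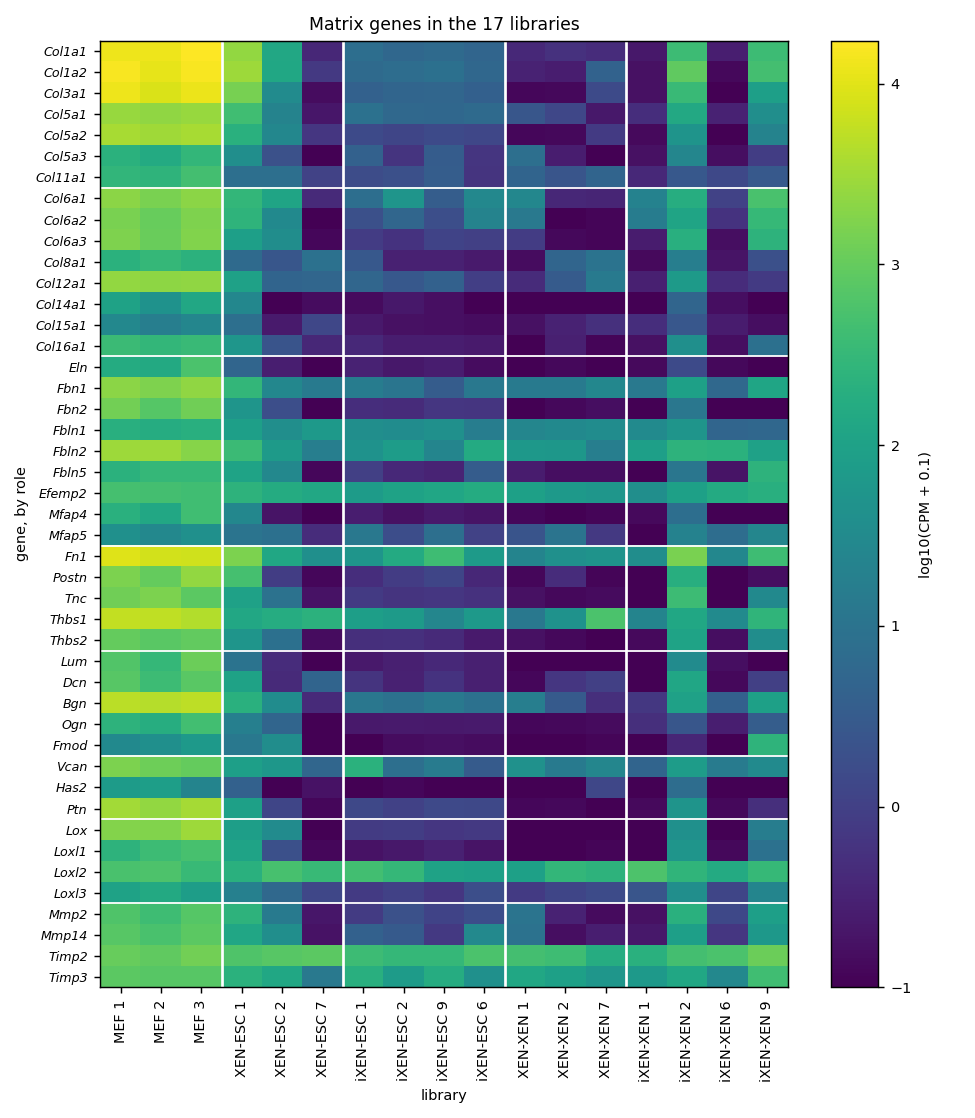
Level of each matrix gene, as log10(CPM + 0.1), in rows grouped by role, and the 17 libraries in columns grouped by cell and medium. The 3 MEF columns are high throughout, XEN-ESC 1 and iXEN-XEN 2 and 9 are intermediate, and Loxl2, Timp2 and Efemp2 are visible in every column.

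Which matrix genes the endoderm cells lacked was asked first, by setting each of the 4 XEN and iXEN groups against the same 3 MEF libraries, so that the 4 comparisons share their controls. All 45 genes passed the filter on low counts in each of them, and none was called higher than in MEF. A gene is called when its adjusted p in edgeR's quasi-likelihood test over all genes is under 0.05. In iXEN-ESC cells 44 of 45 were called lower, where 25.9% of the 14352 genes tested were. In XEN-XEN cells it was also 44 of 45, against 24.5% of 14390 genes. XEN-ESC cells gave 11 (background 13.7%) and iXEN-XEN cells 18 (background 14.9%). The median log2 fold change of the 45 genes was -8.79, -4.03, -4.90 and -9.43 in iXEN-ESC, XEN-ESC, iXEN-XEN and XEN-XEN cells. The median over all genes tested lay between -0.03 and 0.06. Separation of the libraries was wider than the calls: the XEN or iXEN libraries all lay below the 3 MEF libraries for 44, 43, 41 and 45 genes in the same order of groups, where 31.3%, 31.7%, 29% and 34.8% of all genes did.

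The counts of calls moved with the test and the libraries in the fit. DESeq2, another count test, called 33 genes lower in XEN-ESC cells (20.2% of all genes) and 32 in iXEN-XEN cells (20.6%). By edgeR, XEN-ESC cells had 27 without library 1 (background 16%), 22 without library 7 (17.4%) and 6 without library 2 (19.7%). Without MEF 1, 2 and 3 they had 2, 3 and 3 (1.33%, 3.04% and 2.46%). The iXEN-XEN cells had 42 called lower when libraries 2 and 9 were both left out (background 28.8%), 27 without library 2 alone (19.3%) and 11 without library 6 (11.5%). They had 7 without any one of MEF 1, 2 and 3 (7.03%, 8.11% and 6.88%). Called genes that held with each library left out in turn numbered 42 of 44 in iXEN-ESC cells, 34 of 44 in XEN-XEN cells, 2 of 11 in XEN-ESC cells (Col8a1 and Thbs1) and 7 of 18 in iXEN-XEN cells. Every log2 value of the called genes was negative in the fits with 1 library left out. With all libraries, Fmod in iXEN-XEN cells was the one positive value among the 45 genes, at 0.59, not called. Fewer cells of a type and less RNA per cell cannot be told apart in these bulk libraries. The series' text calls the samples biological replicates without saying that those of a group came from separate cultures, so the p-values measure the spread between libraries.

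Markers of other cell types moved with the comparisons against MEF. A list of 8 macrophage genes summed to 73.6 to 240.4 CPM in MEF and 2.79 to 27.6 CPM in the other 14 libraries, with 7, 6, 8 and 8 of 8 called lower in iXEN-ESC, XEN-ESC, iXEN-XEN and XEN-XEN cells. Emr1 and C1qa were at 0 in all 14. Smooth muscle genes had 4, 2, 3 and 4 of 5 called lower. Of all genes tested, 25.9%, 13.7%, 14.9% and 24.5% were called lower in the same order of groups. Endothelial genes summed to 16.4 to 22.5 CPM in MEF and 50.6 to 1646 CPM elsewhere, with 3 of 4, 3 of 4, 2 of 4 and 4 of 5 tested genes called higher. Of all genes tested, 20.8%, 11.4%, 17.7% and 23% were called higher. The highest endothelial sums were 1133 CPM in XEN-ESC 7 and 1646 CPM in XEN-XEN 7. Pecam1 and Tie1, both defining endothelial genes, were at 91.9 and 104 CPM and at 179 and 147 CPM in these libraries, and at 7.38 and 4.80 CPM in iXEN-XEN 2. They were at most 0.395 and 0.440 CPM in every other library. The part of such cells in the matrix differences was not tested.

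**Figure D2:**
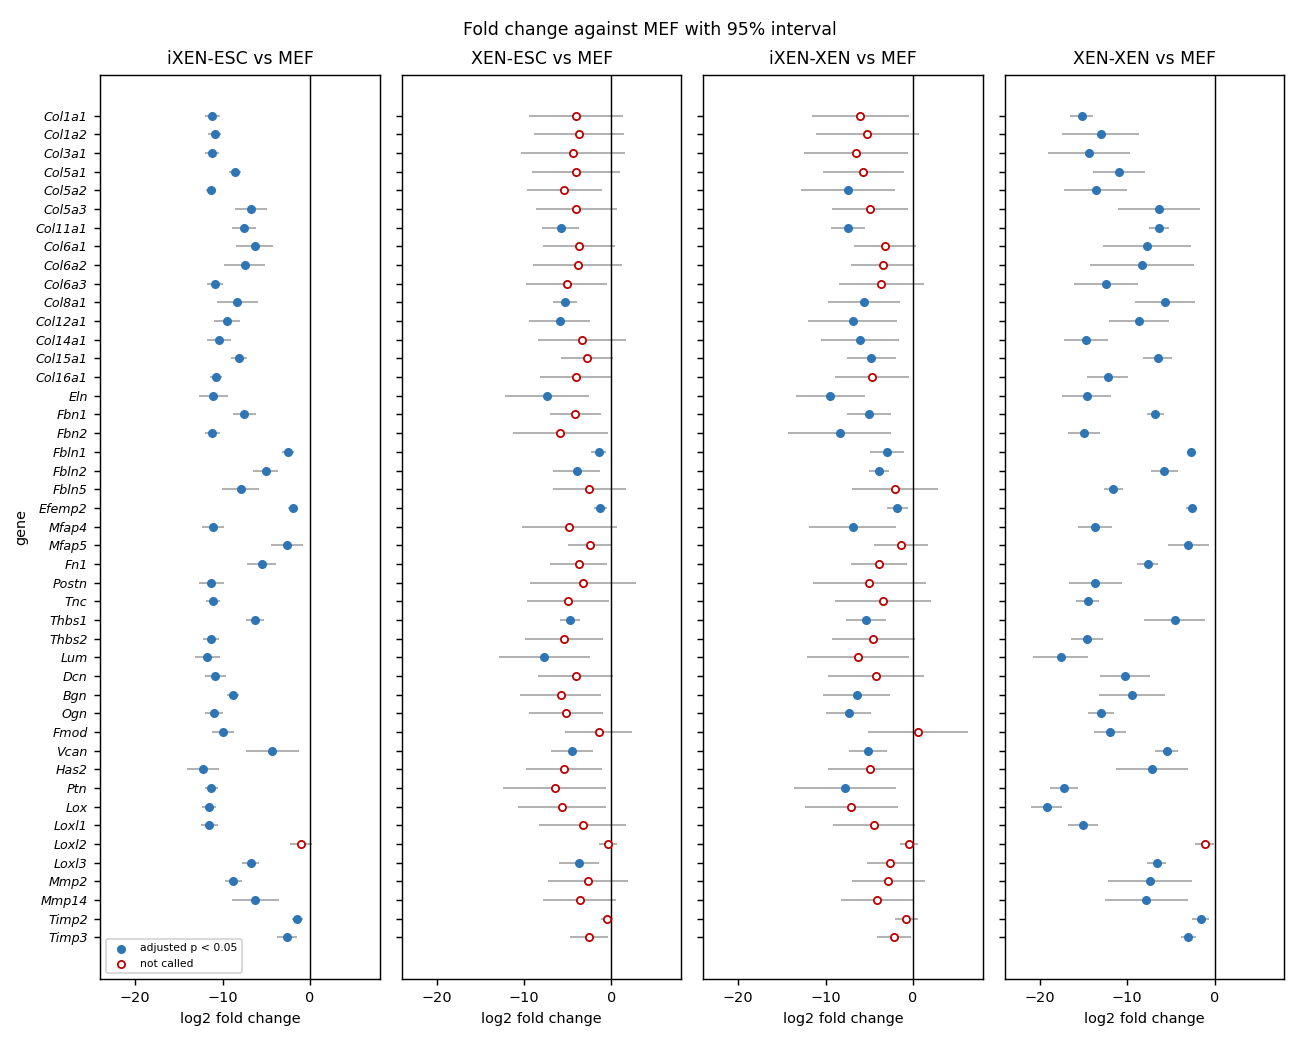
Log2 fold change of each gene against MEF (points) with its 95% interval from edgeR (lines), filled where the adjusted p was under 0.05. Intervals are narrow and clear of 0 for most genes in iXEN-ESC cells, and wide in XEN-ESC cells and iXEN-XEN cells, where 11 and 18 genes were called.

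The 7 fibril-forming collagens were all called lower in iXEN-ESC cells and in XEN-XEN cells. Col1a1, the alpha 1 chain of type I collagen, was at 12934, 12929.7 and 17288 CPM in MEF 1, 2 and 3, and at 7.77, 5.44, 4.94 and 6.30 CPM in iXEN-ESC 1, 2, 6 and 9. XEN-ESC 1, 2 and 7 held 2403, 137 and 0.287 CPM. In XEN medium it was at 0.294, 0.468 and 0.353 CPM in XEN cells 1, 2 and 7 and at 0.114, 393, 0.180 and 391 CPM in iXEN cells 1, 2, 6 and 9. MEF lay above every other library, the iXEN libraries in ESC medium were within a narrow range, and the libraries of XEN-ESC cells and of iXEN-XEN cells spread over more than 1000 times. Its log2 fold change against MEF was -11.17 (SE 0.36, adjusted p = 5.20e-07) in iXEN-ESC cells and -15.18 (SE 0.54, adjusted p = 8.57e-05) in XEN-XEN cells. The differences were -4.03 (SE 2.23, adjusted p = 0.217) in XEN-ESC cells and -6.06 (SE 2.39, adjusted p = 0.0864) in iXEN-XEN cells, neither of which passed.

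Col1a2, the partner chain in type I collagen, ranged from 11210.5 to 15246 CPM in MEF and from 5.49 to 8.52 CPM in iXEN-ESC cells, a log2 fold change of -10.93 (SE 0.35, adjusted p = 4.92e-07). XEN-XEN cells gave -13.04 (SE 1.84, adjusted p = 0.00276), with 0.165 to 4.30 CPM. Values of -3.71 (SE 2.16, adjusted p = 0.237) and -5.22 (SE 2.52, adjusted p = 0.145) were obtained in XEN-ESC cells and iXEN-XEN cells. Col3a1, the chain of type III collagen found with type I in soft tissue, was at 8709 to 12822 CPM in MEF, 3.97 to 5.36 in iXEN-ESC cells and 0.0245 to 1.43 in XEN-XEN cells. It fell in both, by log2 values of -11.21 (SE 0.34, adjusted p = 4.14e-07) and -14.35 (SE 1.94, adjusted p = 0.00240). It stood at -4.41 (SE 2.47, adjusted p = 0.220) and -6.51 (SE 2.57, adjusted p = 0.0868) in the other groups, where it did not pass. Col5a1, part of the type V collagen that starts fibrils, changed by -8.56 (SE 0.30, adjusted p = 6.27e-07) in iXEN-ESC cells and -10.95 (SE 1.24, adjusted p = 0.00144) in XEN-XEN cells. It was at -4.07 (SE 2.10, adjusted p = 0.190) and -5.68 (SE 1.98, adjusted p = 0.0609) for XEN-ESC cells and iXEN-XEN cells. Col11a1, a minor fibril chain, was the one member of the 7 called in all 4 groups, with log2 fold changes from -7.50 to -5.83. Its level was 250.5 to 472 CPM in MEF and at most 8.12 CPM elsewhere, the 3 intermediate libraries included. The type V chain Col5a2 reached the call in iXEN cells in both media and in XEN-XEN cells, and Col5a3 in iXEN-ESC cells and XEN-XEN cells. The call of Col5a3 in XEN-XEN cells was lost without any one MEF library or XEN-XEN 2.

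Promoter windows from RefSeq (GRCm38.p6, 250 bases before to 50 after an annotated start, a build other than that of the counts) were read for genes at both ends of the range. Col1a2 and Col3a1 are shown because their transcripts fell together, and Timp2 and Timp3 because their log2 changes were smaller. Capitals mark CCAAT, the box bound by NF-Y, GGGCGG, a GC box, and TATAAA, each searched on both strands.
Col1a2 (chr6:4505368-4505667, plus strand): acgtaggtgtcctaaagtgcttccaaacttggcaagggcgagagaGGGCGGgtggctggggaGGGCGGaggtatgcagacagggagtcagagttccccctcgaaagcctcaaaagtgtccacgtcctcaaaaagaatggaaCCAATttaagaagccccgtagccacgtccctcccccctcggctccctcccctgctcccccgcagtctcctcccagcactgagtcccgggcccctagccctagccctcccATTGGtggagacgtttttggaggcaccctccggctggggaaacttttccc
Col3a1 (chr1:45311288-45311587, plus strand): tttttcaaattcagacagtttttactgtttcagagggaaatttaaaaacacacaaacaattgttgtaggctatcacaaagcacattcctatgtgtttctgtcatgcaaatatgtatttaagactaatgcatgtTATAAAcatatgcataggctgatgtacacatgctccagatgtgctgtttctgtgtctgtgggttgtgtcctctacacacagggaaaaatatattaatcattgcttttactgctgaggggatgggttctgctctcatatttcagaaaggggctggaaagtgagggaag
Timp2 (chr11:118355362-118355661, minus strand): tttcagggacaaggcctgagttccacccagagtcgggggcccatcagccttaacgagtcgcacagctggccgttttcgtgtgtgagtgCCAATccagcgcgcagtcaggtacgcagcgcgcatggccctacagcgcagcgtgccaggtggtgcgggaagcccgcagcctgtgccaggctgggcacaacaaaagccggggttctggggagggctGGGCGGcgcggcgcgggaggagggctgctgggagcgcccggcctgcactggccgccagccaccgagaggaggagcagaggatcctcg
Timp3 (chr10:86300162-86300461, plus strand): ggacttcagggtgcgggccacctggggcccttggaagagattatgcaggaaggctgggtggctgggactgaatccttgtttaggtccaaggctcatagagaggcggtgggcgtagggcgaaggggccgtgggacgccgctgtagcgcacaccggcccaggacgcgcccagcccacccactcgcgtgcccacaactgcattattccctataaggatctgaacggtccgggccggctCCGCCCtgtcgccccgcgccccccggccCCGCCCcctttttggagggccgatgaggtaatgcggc
The Col1a2 window held 2 CCAAT, 2 GGGCGG and 13 CpG, and that of Col3a1 held 1 TATAAA and no CpG (0). The Timp2 and Timp3 windows held 25 and 24 CpG, against a median of 7 over all 32851 windows and of 11 over those of matrix genes. Of genes that fell further, Col5a1 held 34 CpG and Col16a1 24. Among 34 windows for 27 of the 45 genes, 35.3% held CCAAT, 64.7% GGGCGG and 17.6% TATAAA, beside 37.4%, 35.7% and 13.6% of all windows. Matches are letters in a window and were not tied to binding here.

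The 8 other collagens were likewise called lower in those groups. Col6a1, a chain of the beaded type VI microfibrils, was at 2136, 1525 and 2116 CPM in MEF, 300.5, 116 and 0.313 CPM in XEN-ESC 1, 2 and 7 and 7.77, 54.1, 28.4 and 3.36 CPM in iXEN-ESC 1, 2, 6 and 9. Libraries in XEN medium held 26.1, 0.275 and 0.255 CPM for XEN cells and 21.0, 183, 0.993 and 540.4 CPM for iXEN cells. Every library outside MEF was lower, but single libraries with more than 20 CPM occurred in all 4 groups. Its log2 fold changes were -6.33 (SE 0.92, adjusted p = 0.000718) in iXEN-ESC cells and -7.72 (SE 2.10, adjusted p = 0.0253) in XEN-XEN cells. They were -3.73 (SE 1.73, adjusted p = 0.152) and -3.23 (SE 1.52, adjusted p = 0.137) in XEN-ESC cells and iXEN-XEN cells. The call in XEN-XEN cells was lost without any one of MEF 1, 2 and 3. Its log2 value ran from -12.74 to -7.12 with 1 library left out. Col12a1, a collagen that decorates fibrils, was called lower in all 4 groups: -9.46 (SE 0.64, adjusted p = 1.17e-05), -5.92 (SE 1.44, adjusted p = 0.0313), -6.90 (SE 2.20, adjusted p = 0.0468) and -8.64 (SE 1.44, adjusted p = 0.00474) in iXEN-ESC, XEN-ESC, iXEN-XEN and XEN-XEN cells. Its call in XEN-ESC cells did not hold without any one MEF library, nor that in iXEN-XEN cells without MEF 1, 2 or 3 or without iXEN 1, 6 or 9. Col14a1, of the same fibril-associated family, had no counts in XEN-XEN cells and was there at least 4257-fold lower than in MEF (floor: 3 counts per group). Col8a1 and Col15a1 were at most 17.2 and 8.17 CPM in any library outside MEF, with MEF ranges of 224 to 307 and 17.3 to 27.2 CPM.

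In the elastic fibre group, Fbn1, the main fibrillin of microfibrils, was at 1680.1 to 2286 CPM in MEF and 3.20 to 16 CPM in iXEN-ESC cells. XEN-ESC 1, 2 and 7 held 290.5, 27.0 and 14.4 CPM, and iXEN-XEN 1, 2, 6 and 9 held 12.9, 92.6, 5.72 and 122 CPM. It changed by -7.53 (SE 0.57, adjusted p = 2.08e-05) in iXEN-ESC cells, -6.76 (SE 0.40, adjusted p = 0.000205) in XEN-XEN cells and -4.99 (SE 1.09, adjusted p = 0.0138) in iXEN-XEN cells on the log2 scale. In XEN-ESC it was at -4.14 (SE 1.22, adjusted p = 0.0511). Its level was at least 3.20 CPM in every library. Eln, tropoelastin, ran from 152 to 579 CPM in MEF to at most 4.91 CPM in any other library. It was called in all 4 groups, with -11.05 (SE 0.73, adjusted p = 1.04e-05), -7.42 (SE 2.0, adjusted p = 0.0408) and -9.47 (SE 1.71, adjusted p = 0.00719) in iXEN-ESC cells, XEN-ESC cells and iXEN-XEN cells. In XEN-XEN cells a single count remained, a ratio of 41534 with an exact 95% counting interval from 7454 to 1640580. The call of Eln in XEN-ESC cells was lost without MEF 1, 2 or 3 or without XEN-ESC 2. Fbln1 and Efemp2, fibulins that bind elastin and basement membrane components, fell far less. Efemp2 was at 490.0, 461 and 429.6 CPM in MEF, at 138 to 243 and 73.7 to 166 CPM in XEN-ESC and iXEN-ESC cells, and at 57.6 to 94.2 and 39.4 to 199 CPM in XEN medium. The 4 groups lay below MEF without overlap, at log2 fold changes of -1.93, -1.28, -1.81 and -2.63, each called. For Fbln1, at 175 to 206 CPM in MEF, the corresponding values were -2.51, -1.48, -2.95 and -2.64, each called too. The calls of both were lost in XEN-ESC cells and iXEN-XEN cells without any one MEF library. Those of Fbln1 were also lost without XEN-ESC 7 or iXEN-XEN 1, and those of Efemp2 without XEN-ESC 2 or iXEN-XEN 2 or 6, each in its own group. Mfap4 and Mfap5, microfibril-associated proteins, parted: Mfap5 was at -2.63 and -3.03 in iXEN-ESC cells and XEN-XEN cells. The first call was lost without MEF 1 or MEF 3, and the second without MEF 1, 2 or 3 or XEN-XEN 1. Mfap4 was at -11.11 in iXEN-ESC cells and had 2 counts in XEN-XEN cells, a ratio of 17608 with a counting interval from 4874 to 145401.

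Among the glycoproteins, Fn1, fibronectin, was at 9408, 7676 and 7311 CPM in MEF and 52.6, 160.4, 71.1 and 401 CPM in iXEN-ESC 1, 2, 6 and 9. XEN-ESC 1, 2 and 7 gave 1585, 134 and 41.0 CPM, XEN-XEN 22.8, 43.4 and 49.5 CPM, and iXEN-XEN 1, 2, 6 and 9 37.2, 1543, 26.7 and 401 CPM. No library outside MEF was under 20 CPM, and none reached a MEF library. Log2 fold changes were -5.55 (SE 0.72, adjusted p = 0.000392) in iXEN-ESC cells, -7.67 (SE 0.48, adjusted p = 0.000243) in XEN-XEN cells, and -3.73 (SE 1.36, adjusted p = 0.0883) in XEN-ESC cells and -3.89 (SE 1.36, adjusted p = 0.0617) in iXEN-XEN cells, the last 2 not called. Postn, periostin, which links collagen to tenascin, had 1613, 1014 and 2417 CPM in MEF. It had 489, 0.806 and 0.0261 CPM in XEN-ESC 1, 2 and 7 and 0, 189, 0 and 0.0579 CPM in iXEN-XEN 1, 2, 6 and 9, so that 1 library in each group stood apart. Its log2 fold changes were -11.29 (SE 0.62, adjusted p = 3.78e-06) in iXEN-ESC cells and -13.62 (SE 1.27, adjusted p = 0.000840) in XEN-XEN cells. Without a call they were -3.30 (SE 2.52, adjusted p = 0.355) in XEN-ESC cells and -5.02 (SE 2.78, adjusted p = 0.195) in iXEN-XEN cells. Tnc, tenascin C, gave -11.06 (SE 0.35, adjusted p = 4.92e-07) and -14.53 (SE 0.56, adjusted p = 9.33e-05) in iXEN-ESC and XEN-XEN cells. It gave -5.03 (SE 1.95, adjusted p = 0.102) and -3.45 (SE 2.37, adjusted p = 0.285) in XEN-ESC cells and iXEN-XEN cells.

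Thbs1, thrombospondin 1, an activator of latent TGF-beta, kept at least 12.3 CPM in every library. It stood at 5815, 5476 and 4226 CPM in MEF, 137, 174 and 237 CPM in XEN-ESC 1, 2 and 7 and 87.5, 72.7, 66.7 and 25.7 CPM in iXEN-ESC 1, 2, 6 and 9. In XEN medium it was at 12.3, 46.7 and 579 CPM in XEN-XEN 1, 2 and 7 and 23.4, 129.9, 32.0 and 271 CPM in iXEN-XEN 1, 2, 6 and 9. The highest library outside MEF was XEN-XEN 7, one that was low for most other matrix genes. It was called in all 4 groups, at -6.32 (SE 0.46, adjusted p = 1.70e-05), -4.75 (SE 0.45, adjusted p = 0.00387), -5.37 (SE 0.96, adjusted p = 0.00710) and -4.55 (SE 1.44, adjusted p = 0.0405) for iXEN-ESC, XEN-ESC, iXEN-XEN and XEN-XEN cells. The call in XEN-XEN cells was lost without any one MEF library and without XEN-XEN 2, with log2 values from -7.40 to -3.99. Thbs2, by comparison, was at 785 to 1019 CPM in MEF and under 1 CPM in the 4 iXEN libraries in ESC medium and the 3 XEN libraries in XEN medium.

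Small leucine-rich proteoglycans bind fibrils and set their diameter. Lum, lumican, was at 665, 312 and 1174 CPM in MEF and 0.126 to 0.294 CPM in iXEN-ESC cells, a log2 fold change of -11.75 (SE 0.61, adjusted p = 2.90e-06). It had no counts in XEN-XEN cells, where it was at least 32308-fold lower. In XEN-ESC cells the difference was -7.70 (SE 2.17, adjusted p = 0.0455), a call lost without MEF 1, 2 or 3 or XEN-ESC 2, and in iXEN-XEN cells -6.29 (SE 2.51, adjusted p = 0.0896). Dcn, decorin, gave -10.82 (SE 0.51, adjusted p = 1.87e-06) and -10.24 (SE 1.17, adjusted p = 0.00147) in iXEN-ESC cells and XEN-XEN cells, with -4.09 (SE 1.79, adjusted p = 0.135) and -4.20 (SE 2.37, adjusted p = 0.202) in the other groups. Bgn, biglycan, kept a low level: 11.7, 9.11, 8.99 and 13.3 CPM in iXEN-ESC 1, 2, 6 and 9 against 4904, 4469 and 5273 CPM in MEF. Its log2 fold changes were -8.79 (SE 0.29, adjusted p = 5.20e-07) in iXEN-ESC cells, -9.43 (SE 1.57, adjusted p = 0.00466) in XEN-XEN cells and -6.45 (SE 1.64, adjusted p = 0.0232) in iXEN-XEN cells, the last lost without any one MEF library. In XEN-ESC it was at -5.81 (SE 1.91, adjusted p = 0.0690). Fmod, fibromodulin, was the exception of the class. MEF held 30.0, 40.3 and 69.6 CPM, iXEN-XEN 9 held 252 CPM and XEN-ESC 2 held 36.5 CPM, whereas every library of iXEN-ESC cells and XEN-XEN cells was under 0.1 CPM.

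Vcan encodes the large proteoglycan versican, Has2 a hyaluronan synthase and Ptn the heparin-binding growth factor pleiotrophin. Vcan was at 999 to 1565 CPM in MEF and at 219, 8.20, 3.04 and 14.9 CPM in iXEN-ESC 1, 2, 6 and 9, so library 1 exceeded the other 3 by more than 10 times. It was called in all 4 groups, at -4.30 (SE 1.34, adjusted p = 0.0291), -4.53 (SE 1.0, adjusted p = 0.0235), -5.13 (SE 0.94, adjusted p = 0.00752) and -5.45 (SE 0.54, adjusted p = 0.000992) in iXEN-ESC, XEN-ESC, iXEN-XEN and XEN-XEN cells. The first was lost without MEF 1, 2 or 3 or iXEN-ESC 2 or 9, and the second without any one MEF library. Ptn ranged over 2476 to 3421 CPM in MEF and 0.953 to 1.34 CPM in iXEN-ESC cells. It changed there by -11.27 (SE 0.31, adjusted p = 4.14e-07) and in iXEN-XEN cells by -7.78 (SE 2.51, adjusted p = 0.0489), a call lost without any one MEF library or iXEN-XEN 1, 6 or 9. The XEN-ESC value was -6.51 (SE 2.46, adjusted p = 0.0962). In XEN-XEN cells 2 counts remained, a ratio of 198296 with a counting interval from 54893 to 1637400. Has2 had 1 count over the 4 iXEN libraries in ESC medium, a ratio of 6902 with an interval from 1238 to 272667. It differed by -7.12 (SE 1.70, adjusted p = 0.0165) in XEN-XEN cells, a call lost without MEF 1 or MEF 2. The values were -5.44 (SE 1.79, adjusted p = 0.0690) in XEN-ESC cells and -4.90 (SE 2.09, adjusted p = 0.107) in iXEN-XEN cells.

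The 4 lysyl oxidase genes differed among themselves. Lox, the founding member of the family that cross-links collagen and elastin, was at 1855, 1771 and 2887 CPM in MEF and 0.714, 0.790, 0.646 and 0.588 CPM in iXEN-ESC 1, 2, 6 and 9. XEN-ESC 1, 2 and 7 held 87.8, 33.4 and 0 CPM and iXEN-XEN 1, 2, 6 and 9 held 0, 43.0, 0 and 16.5 CPM. No count of Lox was seen in the 3 XEN libraries in XEN medium, where it was at least 95449.7-fold lower than in MEF. Log2 fold changes were -11.58 (SE 0.34, adjusted p = 4.14e-07) in iXEN-ESC cells, -5.69 (SE 2.09, adjusted p = 0.0902) in XEN-ESC cells and -7.05 (SE 2.30, adjusted p = 0.0501) in iXEN-XEN cells, the last 2 not called. Loxl1, which acts on elastin, followed Lox, with 242 to 510.1 CPM in MEF and under 0.2 CPM in all libraries of iXEN-ESC cells and XEN-XEN cells. In XEN-XEN cells 1 count of Loxl1 remained, a ratio of 50570.1 with a counting interval from 9076 to 1997470. Loxl3 changed by -6.81 and -6.62 on the log2 scale in the same groups.

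Loxl2, the family member also known to act on type IV collagen of basement membranes, was not called in any of the 4 comparisons. It was at 530.4, 600.2 and 332 CPM in MEF, 213, 520.1 and 337 CPM in XEN-ESC 1, 2 and 7, and 455, 310.1, 94.8 and 105 CPM in iXEN-ESC 1, 2, 6 and 9. XEN-XEN 1, 2 and 7 held 96.6, 299 and 246 CPM, and iXEN-XEN 1, 2, 6 and 9 held 586, 261, 162 and 326 CPM. The groups overlapped MEF in all but XEN-XEN cells. Log2 fold changes were -0.98 (SE 0.55, adjusted p = 0.179), -0.39 (SE 0.42, adjusted p = 0.504), -0.49 (SE 0.44, adjusted p = 0.410) and -1.14 (SE 0.46, adjusted p = 0.0851) in iXEN-ESC, XEN-ESC, iXEN-XEN and XEN-XEN cells. Their 95% intervals ran from -2.24 to 0.28, from -1.39 to 0.61, from -1.50 to 0.53 and from -2.26 to -0.02. A fall of 2 log2 units was inside the interval for iXEN-ESC cells and XEN-XEN cells. Without iXEN-ESC 1, Loxl2 was called lower in iXEN-ESC cells too.

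Proteases and their inhibitors differed as well. Mmp2, a gelatinase, was at 406 to 727 CPM in MEF and 0.714 to 1.86 CPM in iXEN-ESC cells. It gave -8.75 (SE 0.43, adjusted p = 2.29e-06) there and -7.37 (SE 1.98, adjusted p = 0.0242) in XEN-XEN cells, the latter lost without any one MEF library or XEN-XEN 2. The XEN-ESC and iXEN-XEN values were -2.70 (SE 1.89, adjusted p = 0.318) and -2.85 (SE 1.79, adjusted p = 0.247). Timp2, an inhibitor that also takes part in activating Mmp2, was at 1054, 908 and 1318 CPM in MEF, 635, 739 and 819.8 CPM in XEN-ESC 1, 2 and 7 and 388, 305, 565 and 310.5 CPM in iXEN-ESC 1, 2, 6 and 9. XEN-XEN 1, 2 and 7 held 470.3, 404 and 171 CPM and iXEN-XEN 1, 2, 6 and 9 209, 475, 579.9 and 1146 CPM. Of the libraries outside MEF, iXEN-XEN 9 lay within the MEF range and the others below it. Timp2 changed by -1.44 in iXEN-ESC cells (adjusted p = 0.00315) and by -1.6 in XEN-XEN cells (adjusted p = 0.0199), the smallest changes among the called genes there. The latter call was lost without MEF 1 or MEF 3. Timp3, a matrix-bound inhibitor, gave -2.60 (SE 0.49, adjusted p = 0.00291), -2.60 (SE 0.91, adjusted p = 0.0795), -2.14 (SE 0.84, adjusted p = 0.0842) and -2.99 (SE 0.35, adjusted p = 0.00152) in iXEN-ESC, XEN-ESC, iXEN-XEN and XEN-XEN cells. Its level was 736 to 842 CPM in MEF and 55.7 to 132 CPM in XEN-XEN cells.

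**Figure D3:**
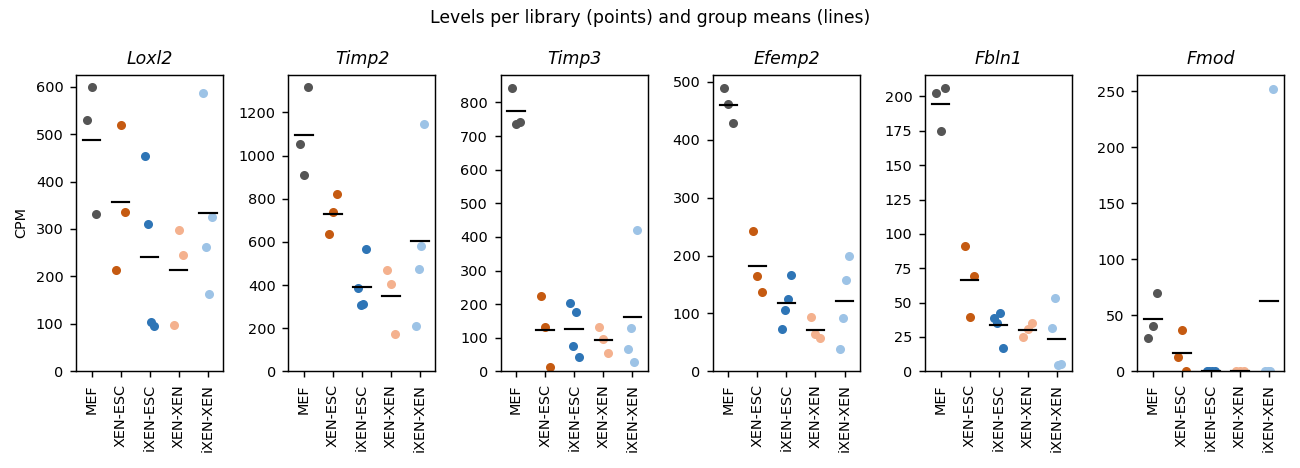
CPM of Loxl2, Timp2, Timp3, Efemp2, Fbln1 and Fmod in each library (points) with the group mean (line), each gene on its own axis from 0. Loxl2 overlaps MEF in 3 of the 4 other groups, Timp2 in 1, and Fmod is above MEF in a single library of iXEN-XEN cells.

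The largest called changes against MEF by fitted log2 value included genes not yet described by their statistics. In iXEN-ESC cells Loxl1 changed by -11.50 (SE 0.43, adjusted p = 7.44e-07) and Thbs2 by -11.36 (SE 0.39, adjusted p = 6.21e-07). Among iXEN-XEN cells Fbn2, a fetal fibrillin, changed by -8.39 (SE 2.52, adjusted p = 0.0391), Col5a2 by -7.42 (SE 2.30, adjusted p = 0.0428) and Ogn, osteoglycin, by -7.38 (SE 1.10, adjusted p = 0.00435). Col11a1 was at -7.43 (SE 0.82, adjusted p = 0.00174) there. In XEN-ESC cells Col11a1 changed by -5.83 (SE 0.90, adjusted p = 0.00966) and Col8a1 by -5.35 (SE 0.57, adjusted p = 0.00461). The call of Fbn2 was lost without any one MEF library or iXEN 6 or 9, that of Col5a2 without any one MEF library or iXEN 9, and that of Col11a1 without MEF 1.

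Without library 1, XEN-ESC cells gave larger fitted differences from MEF for most of these genes. Among the collagens Col1a1 was at -7.67 (adjusted p = 0.0862), Col1a2 at -7.68 (adjusted p = 0.0714), Col3a1 at -9.33 (adjusted p = 0.0622), Col5a1 at -7.84 (adjusted p = 0.0593) and Col6a1 at -5.00 (adjusted p = 0.149), none called. Col12a1, Col11a1 and Col8a1 remained called, at -8.80, -6.18 and -5.38. Fbn1, Fn1, Postn, Tnc, Dcn and Ptn were then called, at -6.56, -6.48, -12.01, -7.99, -7.90 and -12.40. So was Has2, with 3 counts left in libraries 2 and 7. Eln, Lum, Thbs1 and Vcan remained called, at -11.86, -12.07, -4.58 and -5.20. Bgn, Lox, Mmp2, Timp3 and Loxl2 were at -8.05, -6.98, -6.35, -3.37 and -0.12, not called.

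In iXEN-XEN cells without libraries 2 and 9, Mfap5, Loxl2 and Timp2 alone were not called, at -3.24, -0.38 and -1.41. Libraries 1 and 6 together held 0 counts of Postn, Tnc, Lox, Fbn2, Fmod and Has2, 1 of Col5a2 and Dcn, 2 of Col3a1, Eln, Lum and Ptn and 3 of Col1a2. Genes with more counts were at -16.47 (adjusted p = 0.000108) for Col1a1, -13.06 (adjusted p = 0.000106) for Col5a1, -7.46 (adjusted p = 0.00604) for Col6a1, -12.96 (adjusted p = 0.000106) for Col12a1, -7.75 (adjusted p = 0.000245) for Fbn1 and -7.96 (adjusted p = 0.000168) for Fn1. Col11a1, Thbs1, Bgn, Vcan, Ogn, Mmp2 and Timp3 were at -8.62, -7.50, -10.98, -6.95, -9.91, -9.66 and -4.02.

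The 3 intermediate libraries were then read gene by gene. XEN-ESC 1 held all 45 genes at over 1% of the MEF mean and 28 at 10% or more. Timp2 was at 58.1% of the MEF mean, Efemp2 at 52.8%, Fbln1 at 46.9%, Loxl2 at 43.7%, Mmp2 at 41.9%, Fbln5 at 39.4%, Col15a1 at 34.9% and Loxl1 at 29.1%. Of these, Timp2 and Loxl2 were lower in XEN-ESC 1 than in XEN-ESC 2 and 7. Timp2 was at 635 against 739 and 819.8 CPM, and Loxl2 at 213 against 520.1 and 337 CPM. Type I collagen was at 16.7% (Col1a1) and 21.0% (Col1a2), and Postn at 29.1%. XEN-ESC 2 had 7 genes at 10% or more, as did iXEN-ESC 1, and Col1a1 at 0.951%. XEN-ESC 7 had 21 genes under 0.01%.

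In iXEN-XEN 2, 41 genes were over 1% and 20 at 10% or more of the MEF mean. Mfap5 was at 57.2%, Loxl2 at 53.6%, Timp2 at 43.4%, Mmp2 at 35%, Loxl3 at 34.0%, Tnc at 31.0%, Fbln1 at 27.4% and Efemp2 at 20.2%. Of these, Loxl2 was higher in iXEN-XEN 1, at 586 CPM, than in iXEN-XEN 2 and 9, at 261 and 326 CPM. Timp2 and Efemp2 were higher in iXEN-XEN 6 than in iXEN-XEN 2, at 579.9 against 475 CPM and 157 against 92.9 CPM. The 4 genes at or under 1% were Ogn (0.819%), Col11a1 (0.792%), Fmod (0.580%) and Eln (0.469%). Fn1 stood at 19.0% and Dcn at 19.7%.

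A different selection appeared in iXEN-XEN 9, with 28 genes over 1% and 12 at 10% or more. Fmod was at 541% of the MEF mean, Timp2 at 105%, Fbln5 at 85.2%, Mfap5 at 68.8%, Loxl2 at 66.9%, Timp3 at 54.2%, Efemp2 at 43.2% and Col6a1 at 28.1%. The other type VI chains, Col6a2 and Col6a3, were at 23.1% and 16%, and Col1a1 at 2.72%. Lum, Eln, Fbn2, Mfap4, Has2 and Col14a1 had 0 counts, which allows up to 3 counts in the library, and Postn was at 0.00345%. The remaining 10 of the 17 genes at or under 1% were Col11a1, Col3a1, Lox, Col8a1, Col5a2, Col5a3, Col15a1, Dcn, Col12a1 and Ptn, between 0.0132% (Ptn) and 0.846% (Col11a1). Fmod and Fbln5 were thus above their level in iXEN-XEN 2 (0.580% and 4.04%), and Postn, Dcn and Tnc below it. Across the 45 genes, which are not independent replicates, Spearman's rho of the percentages was 0.623 between XEN-ESC 1 and iXEN-XEN 2, 0.449 and 0.524 for the pairs with iXEN-XEN 9, given as a description.

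**Figure D4:**
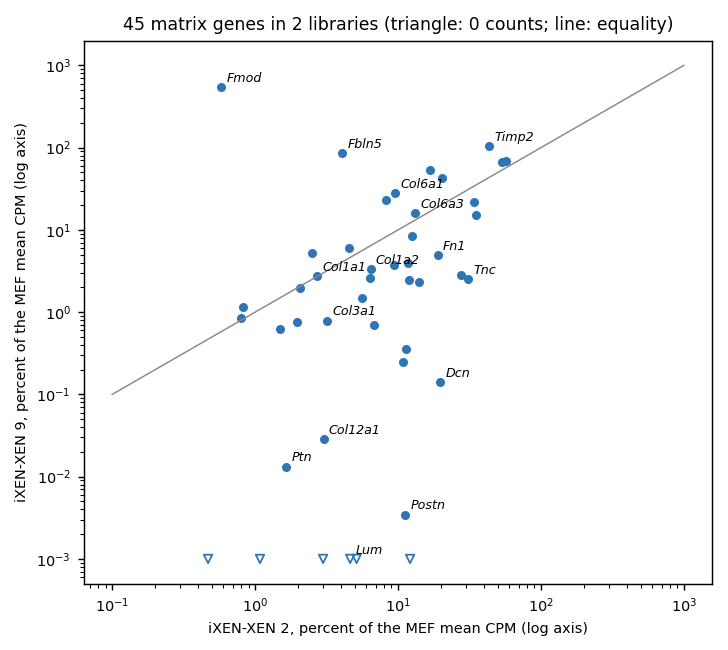
Percent of the MEF mean of each of 45 genes in iXEN-XEN 2 (x, log axis) and iXEN-XEN 9 (y, log axis), with the line of equality and triangles for 0 counts in library 9. Fmod (0.580% against 541%) and Fbln5 lie far above the line, and Postn, Dcn, Ptn and Lum far below it.

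Fibroblast genes outside the matrix stood at unlike levels in these libraries. Thy1, a fibroblast surface protein, was at 76.5%, 57.6% and 0.0718% of its MEF mean in XEN-ESC 1, iXEN-XEN 2 and iXEN-XEN 9. Twist2, a mesenchymal transcription factor, was at 266%, 359% and 7.73%, and Prrx1, another, at 5.49%, 16.3% and 5.48%. Meox2, a mesodermal homeobox gene, was at 0.151%, a single count, in the first and at 0 counts in both iXEN libraries. The 12 genes summed to 576, 545 and 371 CPM there against 2421 to 2767 CPM in MEF. The endoderm list summed to 14205, 9478 and 9869.6 CPM, of which Lama1 gave 11168, 7225 and 6568 CPM. Smooth muscle genes (5) summed to 353, 305 and 102 CPM, against 3173 to 7319.9 CPM in MEF, and macrophage genes (8) to 8.62, 3.42 and 4.6 CPM, against 73.6 to 240.4 CPM in MEF. The part of fibroblast, smooth muscle or other cells in the matrix levels of these libraries was not tested.

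**Figure D5:**
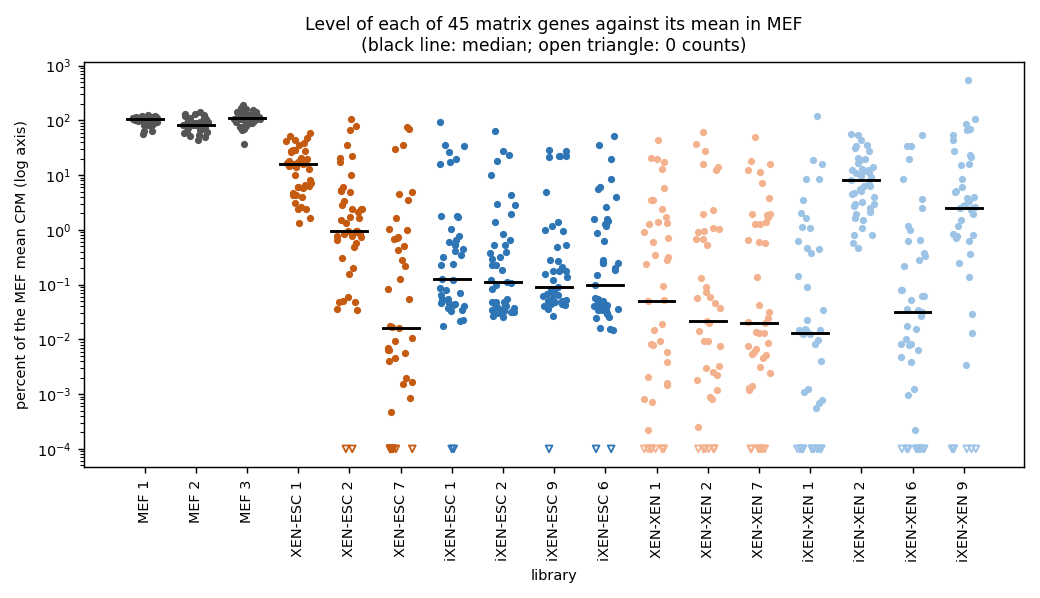
Percent of the MEF mean (y, log axis) of each of 45 matrix genes in each of 17 libraries (x), with the median as a line and open triangles for genes at 0 counts. XEN-ESC 1 and iXEN-XEN 2 and 9 have medians of 16.1%, 8.23% and 2.50%, and the 4 iXEN libraries in ESC medium have 19 to 22 genes between 0.01% and 0.1%.

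The 4 iXEN libraries in ESC medium held a trace of transcripts for many matrix genes. In these 4 libraries 19 to 22 of the 45 genes lay between 0.01% and 0.1% of the MEF mean and at most 2 lay lower. For 18 genes this held in all 4 libraries, with values from 0.0149% to 0.0870% and a median of 0.0413%. Col1a1 was at 0.0540, 0.0378, 0.0343 and 0.0438% in libraries 1, 2, 6 and 9, Lox at 0.0329, 0.0364, 0.0297 and 0.0271% and Ptn at 0.0411, 0.0311, 0.0421 and 0.0437%. The same 18 genes had a median of 0.00113%, 0.00201% and 0.00416% in XEN-XEN 1, 2 and 7, of 0.000736% and 0.00112% in iXEN-XEN 1 and 6, and of 0.00163% in XEN-ESC 7. It was higher than in iXEN-ESC cells in XEN-ESC 1 and 2, at 7.14% and 0.565%, and in iXEN-XEN 2 and 9, at 3.92% and 0.776%. The 18 genes were picked for lying in that range in all 4 iXEN-ESC libraries, so their like size follows from the choice and no test was made. Some rest on few counts: Eln had 5, 5, 1 and 5 counts in iXEN-ESC 1, 2, 6 and 9, and Mfap4 had 4, 3, 2 and 4. Col1a1 had 107 to 234.

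Comparisons between XEN and iXEN cells asked whether the induced cells differ from the embryo-derived lines in matrix. In ESC medium 35 of the 45 genes could be tested and none was called by edgeR, where 0% of all 12944 genes tested were. At an unadjusted p under 0.05 there were 22 of 35, against 13.7% of all genes, and DESeq2 called 12 lower in iXEN cells (2.6% of all genes). The genes of smallest p were Dcn at -6.74 (SE 1.66, adjusted p = 0.296), Col5a2 at -5.97 (SE 1.46, adjusted p = 0.289) and Thbs2 at -5.96 (SE 1.6, adjusted p = 0.316). Col1a1 stood at -7.16 (SE 2.0, adjusted p = 0.319), Col3a1 at -6.82 (SE 2.12, adjusted p = 0.342), Postn at -8.03 (SE 2.47, adjusted p = 0.338) and Fn1 at -1.83 (SE 1.17, adjusted p = 0.460). Without XEN-ESC 1, Fn1 and Postn were at 0.95 and 0.65 on the log2 scale, Col1a1 at -3.48, Col3a1 at -1.86, Dcn at -2.88, Col5a2 at -3.38 and Thbs2 at -3.63, none called. Without XEN-ESC 7, 9 genes were called lower (background 0.249%).

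In XEN medium 30 genes could be tested and none was called by edgeR, where 0% of all 13263 genes were. An unadjusted p under 0.05 was found for 9 (background 4.1%), and DESeq2 called 4 higher in iXEN cells (0.4% of all genes). Values were 9.08 (SE 2.94, adjusted p = 0.985) for Col1a1, 7.79 (SE 3.19, adjusted p = 0.985) for Col3a1 and 3.74 (SE 1.43, adjusted p = 0.985) for Fn1. The smallest p also belonged to Fbln2, a fibulin of the elastic fibre group, at 1.82 (SE 0.58, adjusted p = 0.985), and Ogn at 5.58 (SE 1.31, adjusted p = 0.985). Without iXEN-XEN 2 and 9, Col1a1 was at -1.32, Fn1 at -0.29 and Fbln2 at 1.73, and Col3a1 and Ogn did not pass the filter on low counts.

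Change of medium was asked within each cell type, and edgeR called 0% of all genes in either. In XEN cells 30 matrix genes were tested, 14 had an unadjusted p under 0.05 (background 5.63%) and DESeq2 called 5 lower in XEN medium (0.325% of all genes). Col1a1 differed by -11.20 (SE 2.93, adjusted p = 0.800), Col3a1 by -10.00 (SE 3.46, adjusted p = 0.800), Postn by -10.35 (SE 3.55, adjusted p = 0.800) and Fn1 by -3.98 (SE 1.34, adjusted p = 0.800). Efemp2 was at -1.37 (SE 0.36, adjusted p = 0.800) and Col5a2 at -8.30 (SE 2.38, adjusted p = 0.800). Without XEN-ESC 1 the values were -7.52 for Col1a1, -5.06 for Col3a1, -1.62 for Postn, -1.18 for Fn1, -1.08 for Efemp2 and -5.75 for Col5a2. With each library left out in turn, Postn ran from -12.68 to -1.62, Fn1 from -4.53 to -1.18, Col3a1 from -14.07 to -5.06 and Col1a1 from -11.79 to -7.52. In iXEN cells 34 were tested, 14 had an unadjusted p under 0.05 (background 23.4%) and DESeq2 called 8 higher in XEN medium (6.7% of all genes). The fitted differences were 5.04 (SE 1.95, adjusted p = 0.169) for Col1a1, 4.63 (SE 1.99, adjusted p = 0.20) for Col3a1, 1.6 (SE 1.18, adjusted p = 0.440) for Fn1 and 6.22 (SE 2.60, adjusted p = 0.191) for Postn. Loxl3, Col6a3 and Thbs2 had the smallest p, at 4.10 (SE 1.09, adjusted p = 0.0915), 7.21 (SE 2.13, adjusted p = 0.112) and 6.78 (SE 2.05, adjusted p = 0.115). Without iXEN-XEN 2 and 9 all but Loxl3, at 0.77, turned negative: Col1a1 was at -5.34, Col3a1 at -6.89, Postn at -7.27, Col6a3 at -2.88, Thbs2 at -2.67 and Fn1 at -2.44.

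Genes that act on the matrix were read from a list for each step. Enzymes and chaperones that fold collagen inside the cell (16 tested) were called higher more often than lower. There were 10 higher and 1 lower in iXEN-ESC cells (20.8% and 25.9% of all genes) and 6 and 1 in XEN-XEN cells (23% and 24.5%). There were 4 and 1 in XEN-ESC cells (11.4% and 13.7%) and 6 and 2 in iXEN-XEN cells (17.7% and 14.9%). Without XEN-ESC 1 they were 4 and 1 (10.3% and 16% of all genes). Without iXEN-XEN 2 and 9 they were 6 and 3 (23% and 28.8%). The median log2 fold change of the list was 1.21 in iXEN-ESC cells. Plod2, which hydroxylates lysines for cross-linking, had a mean of 1935 ± 567 CPM (SD, n = 4), MEF 149 ± 13.1 CPM (SD, n = 3), a rise of 3.73 (SE 0.31, adjusted p = 3.20e-05). Leprel1 and P4ha2, prolyl hydroxylases, rose by 3.44 (SE 0.24, adjusted p = 1.44e-05) and 2.93 (SE 0.26, adjusted p = 5.12e-05), and P4ha1 by 2.10 (SE 0.22, adjusted p = 0.000126). Leprel2, a related prolyl hydroxylase, changed by -5.22 (SE 0.43, adjusted p = 3.39e-05). In XEN-XEN cells P4ha2 and Plod2 also rose, by 3.21 and 3.19 on the log2 scale, and Leprel2 fell.

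Procollagen processing outside the cell moved in the direction of the collagens. All 7 tested genes were called lower in iXEN-ESC and XEN-XEN cells, 2 in XEN-ESC cells and 4 in iXEN-XEN cells, with none higher, where 25.9%, 24.5%, 13.7% and 14.9% of all genes were called lower. Without XEN-ESC 1 there were 5 (16% of all genes), and without iXEN-XEN 2 and 9 there were 7 (28.8%). Adamts2, the procollagen N-proteinase, changed by -7.30 (SE 0.38, adjusted p = 2.85e-06) and -8.05 (SE 0.36, adjusted p = 0.000106) in the first pair of groups. Pcolce, an enhancer of the C-proteinase, changed by -6.78 (SE 0.39, adjusted p = 5.12e-06) and -7.05 (SE 1.09, adjusted p = 0.00365). Bmp1, the C-proteinase itself, fell least, with log2 values of -1.72 (SE 0.17, adjusted p = 9.95e-05) and -1.90 (SE 0.26, adjusted p = 0.00239). Collagen and fibronectin receptors (11 tested) had 8, 3, 2 and 6 called lower and none higher in iXEN-ESC, XEN-ESC, iXEN-XEN and XEN-XEN cells, against 25.9%, 13.7%, 14.9% and 24.5% of all genes. The share in iXEN-XEN cells was near that background, and 8 were called lower without iXEN-XEN 2 and 9 (28.8%). XEN-ESC cells had 4 without library 1 (16%). Itga11, a collagen-binding integrin chain of fibroblasts, changed by -8.02 (SE 0.41, adjusted p = 2.67e-06) in iXEN-ESC cells, and Mrc2, a collagen uptake receptor, by -6.20 (SE 0.57, adjusted p = 6.17e-05).

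The TGF-beta list, a pathway known to drive matrix genes in fibroblasts, had 12, 10, 7 and 10 of 16 genes called lower in the same order, against the same 25.9%, 13.7%, 14.9% and 24.5% of all genes. Without XEN-ESC 1 there were 11 (16% of all genes), and without iXEN-XEN 2 and 9 there were 13 (28.8%). In each group 1 gene of the list was called higher, where 20.8%, 11.4%, 17.7% and 23% of all genes were, a call that outside iXEN-ESC cells was lost without any one MEF library. That gene was Ctgf, a matricellular target, with a mean of 1125 ± 406 CPM (SD, n = 4) in iXEN-ESC cells and of 152 ± 28.4 CPM (SD, n = 3) in fibroblasts, a rise of 2.92 (SE 0.32, adjusted p = 0.000156). Tgfbi, a secreted TGF-beta-induced protein, changed by -10.88 (SE 0.46, adjusted p = 1.10e-06) and the latent binding protein Ltbp2 by -10.99 (SE 0.53, adjusted p = 1.97e-06). Of 10 basement membrane genes 8, 5, 5 and 3 were called higher, beside 20.8%, 11.4%, 17.7% and 23% of all genes, so that the share in XEN-XEN cells was near the background. Called lower were 0, 2, 1 and 1, beside 25.9%, 13.7%, 14.9% and 24.5%. Without XEN-ESC 1 there were 3 higher (10.3% of all genes) and 0 lower (16%). Without iXEN-XEN 2 and 9 there were 5 higher (23%) and 2 lower (28.8%). Lamc1 and Lamb1, laminin chains, rose by 5.23 (SE 0.35, adjusted p = 1.07e-05) and 4.98 (SE 0.27, adjusted p = 3.22e-06) in iXEN-ESC cells, and Col4a1, a type IV collagen chain, by 4.13 (SE 0.85, adjusted p = 0.00443). In XEN-XEN cells Lamb1 and Lamc1 rose by 4.19 and 4.12 on the log2 scale and Hspg2, perlecan, changed by -2.04. Col4a1 and its partner chain Col4a2 were at 6.10 and 3.13 CPM in XEN-XEN 1, below MEF (780 to 1260.2 and 666 to 985 CPM), and at 6891 and 5094 CPM in XEN-XEN 2 and 4917 and 2655 CPM in XEN-XEN 7.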

How the data were processed

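Per the submitters' processing notes, HTSeq 0.6.1 gave the deposited values, which are raw counts of reads per gene symbol made by the authors. The notes also name FastQC 0.11.3, Trimmomatic 0.32, TopHat2 2.0.12 and build mm9. The annotation and the strand setting of counting were not given in the sources used here, so overlapping, antisense and near-identical genes are uncertain. Counter lines (20.8% to 33.1% of a file) were left out.

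Counts were tested with edgeR 4.0.16 in R 4.3.3 over all genes of the 2 groups compared: filterByExpr (minimum count 10, minimum total 15), TMM factors, the two-sided quasi-likelihood test and Benjamini-Hochberg adjustment at 0.05. SE is the log2 fold change over the square root of F. DESeq2 1.42.0, other size factors, no filter, all 17 libraries in 1 fit, a replicate block and fits without single libraries were alternatives. The tests were checked on simulated counts. Folds against 0 counts use a floor of 3 counts over the group (0.0653 to 0.149 CPM for 1 library before TMM scaling), and ratios from 1 to 3 counts carry exact 95% intervals, both for counting error only. Library pairs within a group differed by 43.4 to 1219 chi-square per degree of freedom, so each counted as 1 replicate.

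The genes and lists were chosen with earlier results of these data known. All 103 list symbols were found, 8 under another symbol. Fold changes are given for 22 genes set by name, the 5 called genes of largest change per comparison with MEF, the 3 of smallest p where none was called, and up to 4 called genes per list. XEN cells of numbers 2 and 7 deviated from their group means together in both media (correlations of 0.377 and 0.635). The highest correlations with another number were 0.0880 and -0.240. For number 1 the correlation was 0.240, below the 0.428 with another number, so a pair was not clear from the data. Fold changes given for XEN cells between media are from the fit without pairs, and the blocked fit also called 0 matrix genes.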

Additional observations from a re-analysis of the deposited data

Results flagged for a closer look

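A level far from the others of its group was found for 8 gene and group pairs of the 80 examined by Dixon's criterion on log2 CPM at the 95% level. By chance the criterion flags about 1 in 20 groups of independent values. The genes are not independent and iXEN-XEN 2 had been singled out by its matrix level, so the flags are a description and are not set against that share. In iXEN-XEN cells the high library was number 2 in all 7 cases, whereas library 9, intermediate for other genes, was near libraries 1 and 6. The values in iXEN-XEN 2 were 189 CPM for Postn, 33.2 CPM for Lum, 11.9 CPM for Fbn2, 7.77 CPM for Mfap4, 7.45 CPM for Has2, 4.95 CPM for Col14a1 and 1.40 CPM for Eln. In iXEN-ESC cells Col8a1 was high in library 1, at 2.69 CPM. No cause was tested.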

How the results depend on the processing

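The counts of 44 genes called lower in iXEN-ESC cells and in XEN-XEN cells stayed within 1.5 times of the main value in all alternatives, with 42 to 45 and 34 to 44 when 1 library was left out. DESeq2 called 33 genes in XEN-ESC cells (20.2% of all genes) and 32 in iXEN-XEN cells (20.6%) against MEF, 12 and 4 between iXEN and XEN cells in ESC and XEN medium, and 5 and 8 between media in XEN and iXEN cells. With a replicate block 0 were called in iXEN-XEN cells against MEF and 3 between iXEN-ESC and XEN-ESC cells, where libraries share only a number. The share of all genes called in the blocked fits is not given here, so these counts are not read as particular to matrix genes. Without iXEN-XEN 2 and 9, 42 matrix genes were called lower in iXEN-XEN cells against MEF (28.8% of all genes). Leaving out 1 library gave 2 to 27 in XEN-ESC cells and 7 to 27 in iXEN-XEN cells against MEF, 0 to 9 between iXEN-ESC and XEN-ESC cells, and 0 to 1 between media in iXEN cells.

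Signs turned in 13 fits of single genes. Between media in iXEN cells they were -5.34 for Col1a1, -6.89 for Col3a1, -7.27 for Postn, -2.88 for Col6a3, -2.44 for Fn1 and -2.67 for Thbs2 without iXEN-XEN 2 and 9, and -1.73 for Postn with the block. With 1 library left out, Fn1 ran from -0.075 to 2.43 and Postn from -4.67 to 6.63 in that comparison, and between iXEN-ESC and XEN-ESC cells Fn1 ran from -2.68 to 0.95 and Postn from -8.60 to 0.65. Between iXEN-XEN and XEN-XEN cells they were -1.32 for Col1a1 and -0.29 for Fn1 without libraries 2 and 9. Of the remaining values of single genes, 1259 kept direction and call, 87 gained a call and 72 lost it. Low counts of many matrix genes outside MEF limit their fold changes, and the cause of the changes with setting was not tested.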
